A study of Homo sapiens with 2 samples.

Results

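The genes examined were those encoding mitochondrial ribosomal proteins, taken as every row of the hNCI-H716 expression table whose symbol was MRPL or MRPS followed by a number and, where present, a letter from A to C. This choice gave 77 of the 19989 genes in the table, 48 with MRPL symbols (large subunit) and 29 with MRPS symbols (small subunit). The hNCI-H716 cells are an established human line from a colorectal adenocarcinoma of the cecum, used as a model of the GLP-1-secreting L-cell. They were plated on Matrigel and then held for 48 h in DMEM with fetal bovine serum and glucose at 5.5 mM (low) or 25 mM (high). Each concentration gave 1 sequenced library of polyadenylated RNA. Both libraries are thus of the same line on the same substrate, and glucose is the labelled difference between them. Since there was 1 library per concentration, no difference below has a replicate check, no p-value is given, and 95% intervals describe counting error in these 2 libraries only.

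The mitochondrial ribosome sits in the mitochondrial matrix and translates the few mRNAs of the mitochondrial genome, which encode core subunits of the respiratory chain and of ATP synthase. Its ribosomal RNAs are made in the mitochondrion, whereas all of its proteins are encoded by nuclear genes, made in the cytosol and imported. Some of these proteins descend from bacterial ribosomal proteins and carry their numbers, and others were added to the mitochondrial ribosome and have no bacterial counterpart.

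The symbols did not match the ribosome exactly. MRPS36, now known as KGD4, is a component of the 2-oxoglutarate dehydrogenase complex rather than of the ribosome, and it was kept because its symbol meets the rule. MRPS30 and MRPS18A carry small-subunit names but sit in the large subunit. MRPL58 appeared in the table under its older symbol ICT1 and so lay outside the 77 genes. A further 5 ribosomal components with unrelated symbols, DAP3, CHCHD1, AURKAIP1, PTCD3 and GADD45GIP1, were also outside and are described separately.

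The total estimated counts recovered from the table were 21757802 for low and 19456812 for high glucose, where a count of 0 allows up to 0.138 and 0.154 CPM (counts scaled to library size). The L-cell and enteroendocrine markers GCG (1954 and 1808 CPM in low and high glucose) and CHGA (704 and 653 CPM) were abundant, as were PCSK1 (555 and 600 CPM) and SCG2 (204 CPM in both). The counting interval of the log2 ratio lay below 0 for GCG and CHGA and above 0 for PCSK1, and it held 0 for SCG2. Of the epithelial markers, 5 averaged at least 1 CPM, and all 5 were higher in high glucose, with 4 counting intervals of the log2 ratio above 0. Over all genes averaging at least 1 CPM, such intervals lay above 0 for 15.8% and below 0 for 16.0%. KRT8 was at 270 and 291 CPM and KRT18 at 182 and 212 CPM. EPCAM was low, at 3.37 and 3.502 CPM, and KRT20 was near or at the lowest value of the table. Of the blood, fibroblast and endothelial markers, PTPRC and CD3E had no row, COL1A1 and PECAM1 were under 1 CPM in both libraries, and COL1A2 was at 3.74 and 4.94 CPM. VIL1, a brush border protein, was at 11.7 CPM in low and 17.8 CPM in high glucose and CDX2, an intestinal transcription factor, at 30.5 and 38.2 CPM, and the part of these markers in the values below was not tested. In such bulk samples, a change in the share of cells of a type and a change in RNA per cell cannot be told apart.

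All 77 genes were expressed in both libraries, with mean levels between 12.04 and 218 CPM, an 18.2-fold range, so that none was removed by a minimum mean of 1 or 10 CPM. Together they took 4705 CPM in low and 4719 in high glucose, or 0.471% and 0.472% of the scaled library size. By reads, without regard to transcript length, MRPS35, a mitochondria-specific protein of the small subunit, was highest at 214 CPM in low and 223 CPM in high glucose (95% Wilson intervals 208 to 220 and 217 to 230). It ranked 871 among all genes of the table. MRPS34, at 176 and 175 CPM, and MRPS27, at 163 and 160 CPM, are also small-subunit proteins without a bacterial counterpart. MRPL37 had 163 and 157 CPM. MRPL51 had 154 and 151 CPM. These 5 genes all encode proteins specific to mitochondria, 3 in the small subunit and 2 in the large. Of the 77 members, 30 are of this kind. Their median level was 43.9 CPM, below the 50.3 CPM of the 46 members with a bacterial counterpart.

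At the low end, MRPS31, another small-subunit protein without a bacterial counterpart, was at 11.8 CPM in low and 12.3 CPM in high glucose (95% Wilson intervals 10.4 to 13.3 and 10.9 to 13.98). MRPL16, a peptidyl transferase center protein, had 16.0 and 13.9 CPM. MRPS26 had 17.3 and 14.7 CPM. The Wilson intervals of these 3 genes overlapped between low and high glucose. For MRPS26 the counting interval of the log2 ratio nevertheless lay below 0 (-0.46 to -0.0082). MRPL50 had 16.3 and 16.1 CPM. MRPS28, which is related to bacterial S1, had 19.8 and 21.7 CPM. The order of the genes was nearly the same in both libraries, with a Spearman's rho of 0.989 and a Pearson's r of 0.9902 on log2 CPM over the 77 genes, which share these libraries and are not independent replicates.

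**Figure D1:**
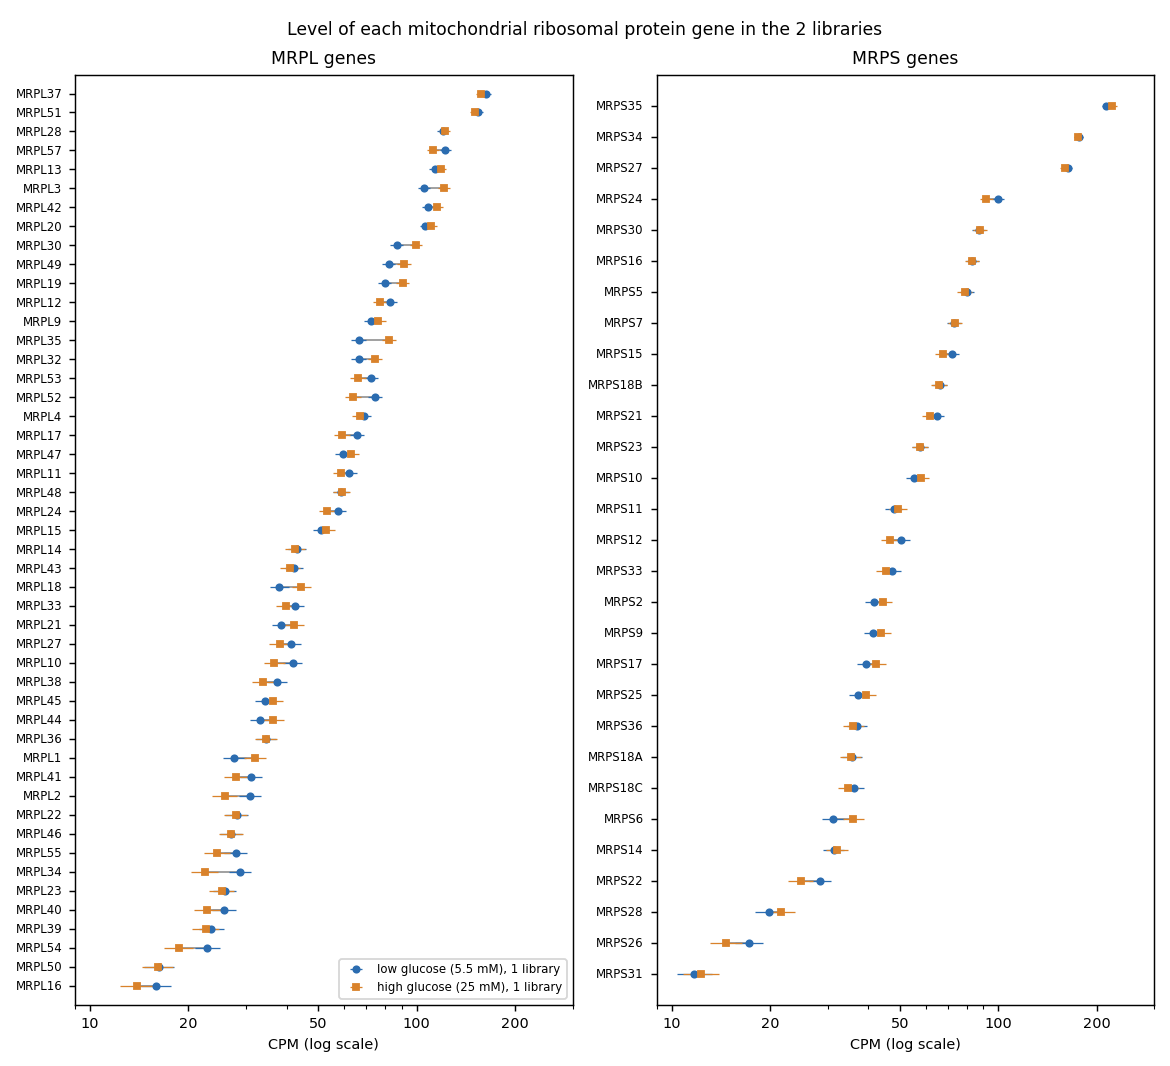
CPM of each of the 77 genes (log axis) in the low glucose (circles) and high glucose (squares) libraries, with 95% Wilson intervals, MRPL genes on the left and MRPS genes on the right in order of mean level. MRPS35 is highest at 214 and 223 CPM and MRPS31 lowest at 11.8 and 12.3 CPM, and the symbols of most genes lie on or beside each other.

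Per kilobase of the longest annotated coding transcript, the order changed. MRPS34 was highest at 169 CPM per kb, and it was followed by MRPS24 at 129, MRPL51 at 123, MRPS35 at 116 and MRPL13 at 107 CPM per kb. MRPS24, the counterpart of bacterial S3 in the small-subunit head, shares its exons with the readthrough gene URGCP-MRPS24, which has a row of its own, so the division of reads between them is uncertain. The lowest levels were those of MRPL50 at 4.87, MRPL42 at 7.17 and MRPS31 at 8.23 CPM per kb. Such levels depend on the transcript taken as the length. With the median length over a gene's transcripts, MRPL42, whose longest transcript is 15582 bases, was at 121 CPM per kb, and MRPL51, at 304, stood above MRPS34, at 170, while MRPL50 and MRPS31 kept their values. The median was 34.5 CPM per kb for MRPL genes and 28.4 CPM per kb for MRPS genes. Both medians were above the 13.6 CPM per kb of all genes averaging at least 10 CPM, and below the 524 CPM per kb of 79 cytosolic ribosomal protein genes and the 90.4 CPM per kb of 76 nuclear genes for respiratory chain subunits. The order of the 2 subunits' medians was the same with the median transcript length (54.2 and 43.0 CPM per kb), which moved both by more than 1.5 times, and at that length all genes averaging at least 10 CPM had a median of 26.0 CPM per kb.

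Levels per kilobase were also compared by the origin of the protein. The 30 large-subunit members with a bacterial counterpart had a median of 42.0 CPM per kb, and the 20 large-subunit members without one had 28.6 CPM per kb. With the median transcript length these were 56.3 and 46.1 CPM per kb, in the same order. In the small subunit, 16 members with a bacterial counterpart had a median of 29.96 CPM per kb, and 10 without one had 15.7 CPM per kb. In the small subunit this order turned around with the median transcript length, at 40.05 CPM per kb with a counterpart and 52.55 without, and by CPM the medians were 48.6 and 51.9. By the longest transcript, the 10 genes without a counterpart held MRPS34 (169 CPM per kb) and MRPS35 (116 CPM per kb) as well as MRPS31 (8.23), MRPS25 (8.35) and MRPS23 (10.2). The values of MRPS23 and MRPS25 rest on longest transcripts of 5621 and 4586 bases, and with the median length they were 99.3 and 29.9 CPM per kb. No test was run on these differences, because genes are not replicates of a condition.

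**Figure D2:**
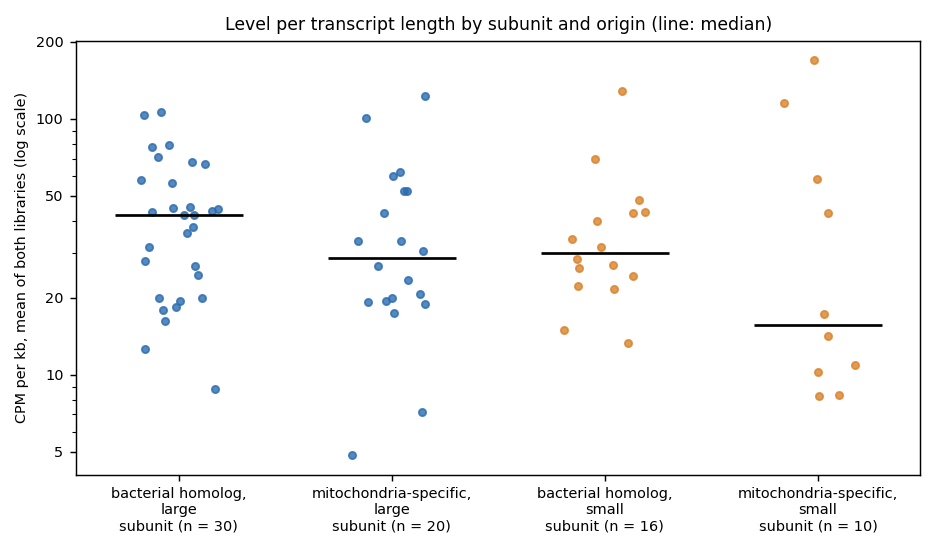
Level of each gene (CPM per kb of the longest coding transcript, mean of both libraries, log axis) by subunit and origin, with MRPS36 left out; each point is a gene and each line a group median. The medians are 42.0 and 28.6 CPM per kb for large-subunit genes with and without a bacterial counterpart, and 29.96 and 15.7 for small-subunit genes, where the order turns around with the median transcript length (40.05 and 52.55).

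The comparison of low with high glucose asked whether MRPL and MRPS transcripts differed between the libraries. The summed level was nearly the same, with a log2 ratio of high over low glucose of 0.0043 (95% counting interval -0.0086 to 0.017). The MRPL sum was 2859 CPM in low and 2876 CPM in high glucose, a log2 ratio of 0.0082 (-0.0083 to 0.025). The MRPS sum was 1846 and 1843 CPM, a log2 ratio of -0.0017 (-0.022 to 0.019). All 3 intervals thus held 0. By gene, the median log2 ratio was -0.023 (SD 0.15) for MRPL, with 20 genes higher and 28 lower in high glucose, and -0.0048 (SD 0.095) for MRPS, with 14 higher and 15 lower. The median over all 77 genes was -0.011 (SD 0.13, range -0.36 to 0.30), beside 0.0063 (SD 0.16) for the 9345 genes averaging at least 10 CPM. Of those 9345 genes, 4846 were higher and 4499 lower in high glucose.

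MRPL34 was the single member whose log2 ratio lay at least 0.32 from 0, and it was lower in high glucose. None was higher by that much and none differed by 2-fold. Among all 13052 genes averaging at least 1 CPM, 8.18% were lower by 0.32 or more on the log2 scale, 4.41% were higher by as much and 0.835% differed by 2-fold. Among the 9345 genes averaging at least 10 CPM, a range that holds every member, these shares were 2.62%, 1.47% and 0.0963%. The count of members is near the shares of the second set, so it is no result about these genes in particular.

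The 95% counting interval of the log2 ratio lay below 0 for 12 members (15.6%) and above 0 for 11 (14.3%), and it held 0 for 54. The shares over all genes were 16.0% below and 15.8% above among those averaging at least 1 CPM, and 18.0% and 20.4% among those averaging at least 10 CPM, so the members' shares did not exceed the background. The 12 genes were 9 MRPL genes (MRPL34, MRPL54, MRPL2, MRPL52, MRPL10, MRPL55, MRPL17, MRPL53 and MRPL57) and 3 MRPS genes (MRPS26, MRPS22 and MRPS24). The 11 genes were also 9 MRPL genes (MRPL35, MRPL18, MRPL1, MRPL3, MRPL30, MRPL19, MRPL32, MRPL49 and MRPL42) with 2 MRPS genes (MRPS6 and MRPS35). Of the 48 MRPL genes, 18.8% thus lay below and 18.8% above 0, near the shares over all genes averaging at least 10 CPM. Of the 29 MRPS genes, 10.3% lay below and 6.90% above 0. The squared difference of each gene relative to its counting error (chi-square, 1 degree of freedom) had a median of 3.16 in MRPL genes and 0.909 in MRPS genes, beside 2.31 over all genes averaging at least 10 CPM and 0.455 from counting error alone. The median levels of the subunits were alike, at 47.4 CPM for MRPL and 48.6 CPM for MRPS, and the difference in spread between them was not tested.

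**Figure D3:**
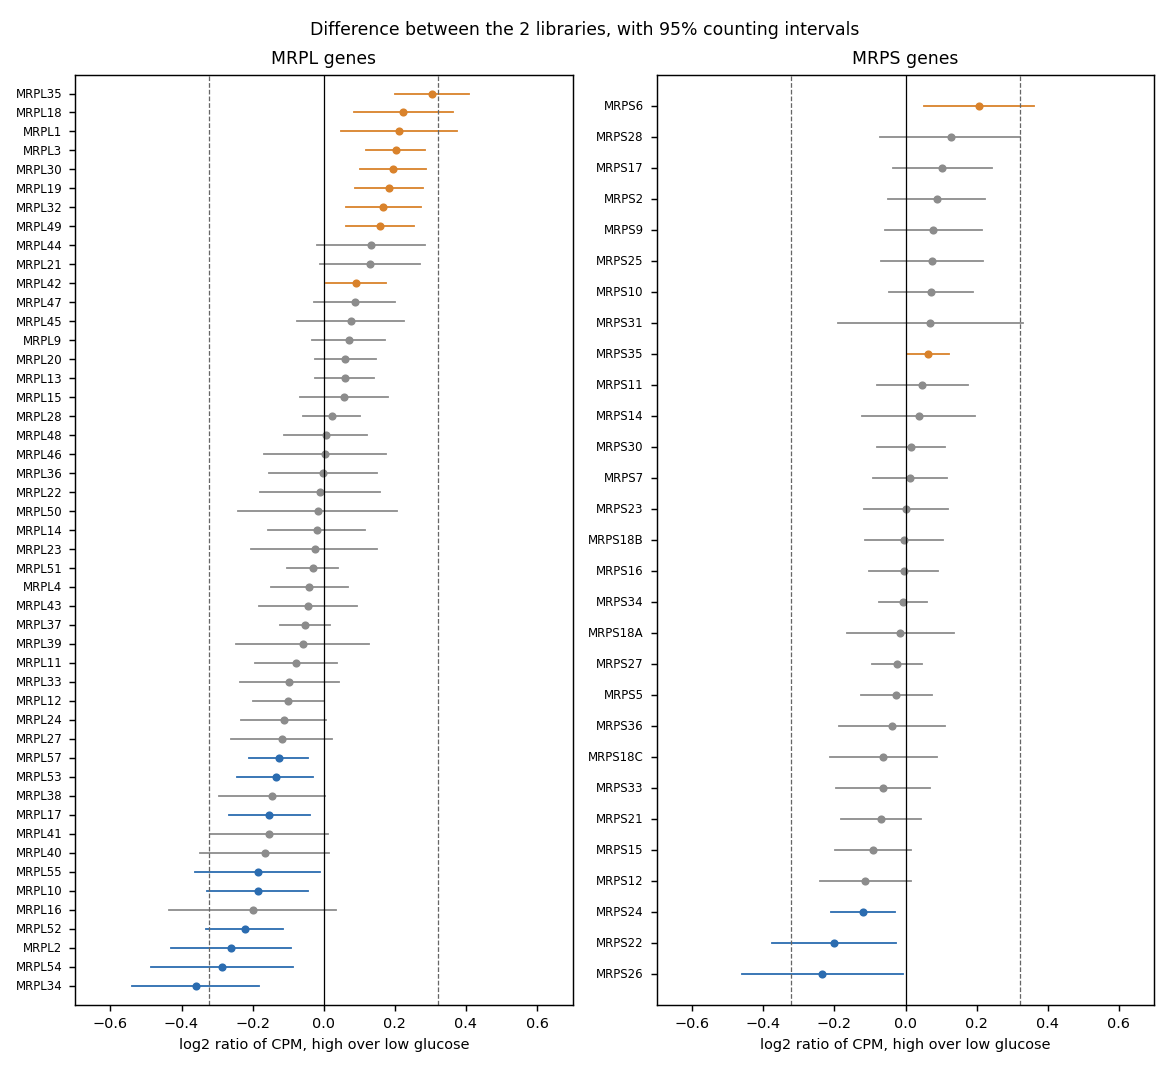
Log2 ratio of CPM, high over low glucose, for each MRPL gene (left) and MRPS gene (right), with 95% counting intervals; orange intervals lie above 0, blue below 0 and grey hold 0, and dashed lines mark 0.32 on either side of 0. MRPL34 at -0.36 is the single point beyond a dashed line, and 54 of the 77 intervals are grey.

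The largest differences in either direction were in large-subunit genes. MRPL34 (chr19:17292609-17306843 of GRCh38, plus strand), the counterpart of bacterial L34, was at 28.9 CPM in low and 22.5 CPM in high glucose (95% Wilson intervals 26.7 to 31.2 and 20.5 to 24.7). Its log2 ratio was -0.36 (-0.54 to -0.18), and the intervals of the libraries did not overlap. MRPL34 overlaps the opposite-strand gene ABHD8, and the library kit does not mark strand, so reads of the 2 genes cannot be told apart where they overlap. MRPL35 (chr2:86199355-86213794, plus strand), the counterpart of bacterial L35, was at 66.5 CPM in low and 82.1 CPM in high glucose (63.2 to 70.0 and 78.2 to 86.2). Its log2 ratio was 0.30 (0.20 to 0.41), the highest of the 77, with no overlap between the libraries' intervals.

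Of the other genes with low ratios, MRPL54, a mitochondria-specific large-subunit protein, was at 22.8 CPM in low and 18.7 CPM in high glucose, a log2 ratio of -0.29 (-0.48 to -0.088). MRPL2, which lies at the peptidyl transferase center, was at 30.9 and 25.8 CPM, a log2 ratio of -0.26 (-0.43 to -0.092). It overlaps the opposite-strand gene KLC4. MRPS26 had the lowest ratio among MRPS genes, at -0.23 (-0.46 to -0.0082), and MRPL52 was at 74.5 and 63.9 CPM, a log2 ratio of -0.22 (-0.33 to -0.11). MRPL54, MRPS26 and MRPL52 all lack a bacterial counterpart, whereas MRPL34 and MRPL2 have one.

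Of the other genes with high ratios, MRPL18, a central protuberance protein, was at 38.0 CPM in low and 44.4 CPM in high glucose, a log2 ratio of 0.22 (0.084 to 0.36). MRPL1 of the L1 stalk, which guides spent tRNA out of the ribosome, was at 27.7 and 32.0 CPM, a log2 ratio of 0.21 (0.047 to 0.38). MRPS6, a small-subunit protein with a bacterial counterpart, was at 31.2 and 36.0 CPM, a log2 ratio of 0.21 (0.053 to 0.36). Its exons overlap those of SLC5A3 on the same strand, which has a row of its own. MRPL3 was at 105 and 121 CPM, a log2 ratio of 0.20 (0.12 to 0.29). All 5 genes with the highest ratios thus have a bacterial counterpart, as do 46 of the 77 members.

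Of the 5 genes listed for the core around the peptidyl transferase center, where peptide bonds form, 4 were lower and 1 was higher in high glucose. The intervals of 3 held 0. MRPL3 was the higher gene, with MRPL2 at the other end. MRPL16 had a log2 ratio of -0.20 (-0.43 to 0.034). MRPL27 was at 41.3 and 38.1 CPM, a log2 ratio of -0.12 (-0.26 to 0.023). MRPL4 was at 68.9 and 67.0 CPM, a log2 ratio of -0.041 (-0.15 to 0.067). The group's median log2 ratio was -0.12 and its summed levels were 263 and 266 CPM, with MRPL3 as its most abundant gene. With the trend of all genes with GC content taken off, as described below, MRPL4 was at 0.042, and the group had 2 genes higher and 3 lower.

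All 3 genes of the L7/L12 stalk, the flexible arm that recruits translation factors, were lower in high glucose. MRPL12, the repeated protein of the arm, was at 82.9 and 77.4 CPM, a log2 ratio of -0.099 (-0.20 to 0.0002). MRPL10, which anchors it, was at 41.8 and 36.7 CPM, a log2 ratio of -0.19 (-0.33 to -0.043). MRPL11, at the base of the stalk, was at 62.1 and 58.8 CPM, a log2 ratio of -0.079 (-0.19 to 0.036). The interval of MRPL10 was the 1 of these that lay wholly below 0. With the GC trend taken off, MRPL12 was at -0.016, MRPL10 at -0.18 and MRPL11 at -0.086.

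Around the exit tunnel, through which the new peptide leaves toward the inner membrane, 2 of 6 genes were higher and 4 lower in high glucose, and 5 intervals held 0. MRPL45, which contacts the inner membrane, was at 34.4 and 36.3 CPM, a log2 ratio of 0.077 (-0.075 to 0.23). MRPL47 was at 59.5 and 63.2 CPM, a log2 ratio of 0.087 (-0.027 to 0.20). MRPL17, the gene whose interval lay below 0, was at 65.6 and 59.0 CPM, a log2 ratio of -0.15 (-0.27 to -0.040). The remaining rim proteins all had bacterial counterparts and intervals that held 0. MRPL24 was at 57.6 and 53.3 CPM. MRPL22 was at 28.1 and 27.9 CPM, and MRPL23 at 25.8 and 25.4 CPM. With the GC trend taken off, MRPL23 was at 0.048, and the rim had 3 genes higher and 3 lower.

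The central protuberance faces the small subunit on top of the large one. Of its 7 genes, ICT1 (MRPL58) included, 3 were higher and 4 lower in high glucose, and 5 intervals held 0. MRPL18, above, and MRPL55 had intervals away from 0, in opposite directions. MRPL55 was at 27.9 and 24.5 CPM, a log2 ratio of -0.19 (-0.36 to -0.010). MRPL38 was at 37.5 and 33.9 CPM, with a log2 ratio of -0.15, and MRPL40 at 25.7 and 22.9 CPM, with a log2 ratio of -0.17. ICT1, a peptidyl-tRNA hydrolase built into the ribosome, was at 19.2 and 16.7 CPM, a log2 ratio of -0.20 (-0.41 to 0.013). MRPL46 and MRPL48 differed least, with log2 ratios of 0.0034 (-0.17 to 0.18) and 0.0055 (-0.11 to 0.12) at 27.0 and 27.1 CPM and at 58.7 and 58.9 CPM.

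In the head, decoding site and mRNA entrance of the small subunit, 4 of 7 genes were higher and 3 lower in high glucose, and 6 intervals held 0. MRPS12, at the decoding site, was at 50.5 and 46.7 CPM, a log2 ratio of -0.11 (-0.24 to 0.015). MRPS24 was at 99.8 and 91.8 CPM, a log2 ratio of -0.12 (-0.21 to -0.029), the 1 interval below 0. The remaining genes of the group lay closer to 0. MRPS7 was at 73.0 and 73.7 CPM, and MRPS5, at the mRNA entrance, at 80.2 and 78.7 CPM. MRPS9 was at 41.4 and 43.7 CPM, MRPS10 at 55.2 and 58.0 CPM and MRPS14 at 31.3 and 32.1 CPM. The highest log2 ratio among these 7 genes was 0.078, for MRPS9 (-0.059 to 0.21).

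The MRPS18 paralogs are 3 related proteins named after bacterial S18, of which MRPS18B and MRPS18C sit in the small subunit and MRPS18A in the large. MRPS18C was counted above as the counterpart of S18, and MRPS18A and MRPS18B among the mitochondria-specific proteins. MRPS18B was the most abundant, at 66.0 CPM in low and 65.8 CPM in high glucose. MRPS18A was at 35.7 and 35.4 CPM, and MRPS18C at 36.3 and 34.7 CPM. Per kilobase of the longest transcript the order was MRPS18B (43.0), MRPS18A (33.5) and MRPS18C (21.6), and it turned around with the median length, at 43.0, 44.3 and 53.3 CPM per kb. Their log2 ratios were -0.0048 (-0.11 to 0.10), -0.015 (-0.16 to 0.14) and -0.063 (-0.21 to 0.088) for MRPS18B, MRPS18A and MRPS18C, so that the 3 intervals held 0.

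The ribosomal components with other symbols lay in the same range. DAP3, a GTP-binding small-subunit protein, was at 127 CPM in low and 132 CPM in high glucose. PTCD3, a pentatricopeptide repeat protein, was at 75.4 and 80.9 CPM, a log2 ratio of 0.10 (0.0023 to 0.20). These 2 genes were higher in high glucose, and the other 3 were lower. AURKAIP1 was at 111 and 102 CPM, a log2 ratio of -0.12 (-0.21 to -0.038). GADD45GIP1 was at 73.9 and 67.2 CPM, a log2 ratio of -0.14 (-0.24 to -0.031). CHCHD1, at 31.4 and 29.4 CPM, had an interval that held 0.

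Across the members, log2 ratios declined with the GC content of the transcript, with a Spearman's rho of -0.447 over 77 genes (-0.484 in 48 MRPL and -0.294 in 29 MRPS genes). The same relation over 8858 genes averaging at least 10 CPM had a rho of -0.250. The genes share both libraries, so these values are descriptions. The members' ratios also went with the length of the principal transcript (rho 0.251, and 0.125 over all genes) and with mean level (rho 0.245, and 0.086 over all genes), the latter in MRPL (0.401) but not in MRPS genes (-0.157). Of the 39 members with a GC content of 48.9% or less, 25 were higher and 14 lower in high glucose, with a median log2 ratio of 0.059. Of the 38 members above that value, 9 were higher and 29 lower, with a median of -0.048. Split at the same GC content, the genes averaging at least 10 CPM had 2989 higher and 1836 lower (median 0.041) on the low side, and 1643 higher and 2390 lower (median -0.034) on the high side. MRPL35 (39.9% GC), MRPL1 (39.1%) and MRPL3 (42.4%) lay on the low side, and MRPL54 (60.9%), MRPS26 (63.4%) and MRPL34 (55.2%) on the high side. With the trend of all genes in 20 bins of GC content taken off, the SD of the members was 0.118 and their rho with GC was -0.153. MRPL34 then had a log2 ratio of -0.33 and MRPL35 of 0.27, so that MRPL34 was still more than 0.32 below 0. The members then had 37 genes higher and 40 lower, and 9 members with ratios near 0 changed sign, among them MRPL48 of the central protuberance and MRPS18A. Whether base composition, in the RNA or in library preparation, has a part in these ratios was not tested.

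**Figure D4:**
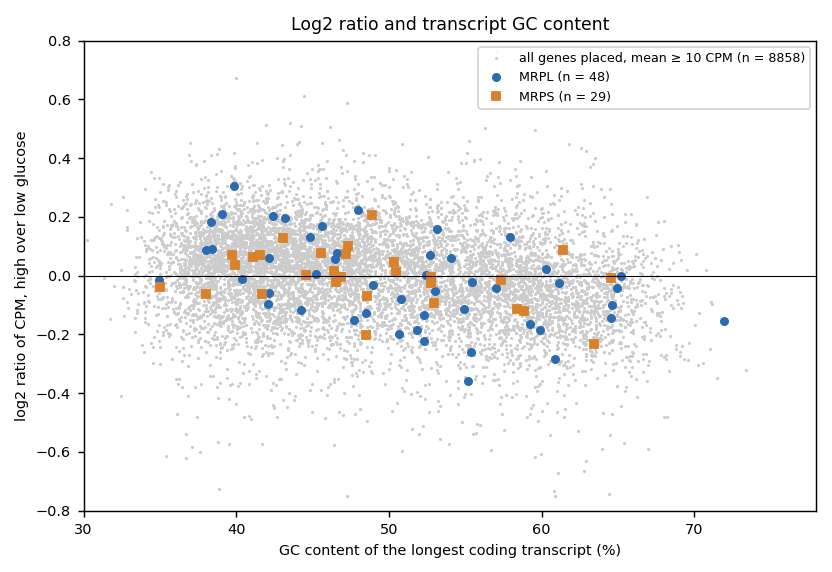
Log2 ratio of CPM, high over low glucose, against the GC content of the longest coding transcript (%), for 8858 genes averaging at least 10 CPM (grey), MRPL (circles) and MRPS genes (squares); 10 of the grey genes lie outside the axes. Members with low GC content lie mostly above 0 and those with high GC content mostly below, with rho -0.447 for the members and -0.250 for all genes.

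The members were spread over 21 chromosomes, with 8 genes each on chromosomes 1 and 2. A head-to-head neighbor, meaning a coding gene on the other strand whose start lies within 1000 bases upstream, was annotated for 17 of 77 members (22.1%), beside 9.11% of the 13783 table genes found in the annotation. Several such neighbors also act in mitochondria. MRPL46 and MRPS11, a large- and a small-subunit gene, start 34 bases apart on chromosome 15. Their levels were 27.0 and 27.1 CPM for MRPL46 and 47.8 and 49.4 CPM for MRPS11. MRPL36 starts 34 bases from NDUFS6, and MRPL47 starts 36 bases from NDUFB5, both of them genes for subunits of respiratory complex I. NDUFS6 was at 103 and 93.5 CPM, a log2 ratio of -0.13, while MRPL36 was at 34.7 CPM in both libraries. MRPL18 starts 63 bases from TCP1, a subunit of the cytosolic chaperonin, and both were higher in high glucose, TCP1 with a log2 ratio of 0.14 (227 and 251 CPM). The opposite held for MRPL30, at 86.9 and 99.5 CPM, and its neighbor MITD1, at 13.96 and 11.7 CPM. Of the 14 pairs in which both genes had a row, 7 had log2 ratios of the same sign.

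Exons of 29 members overlapped a gene on the opposite strand, which had a row of its own for 21, and exons of 16 members overlapped a gene on the same strand. A further 36 members overlapped no other gene. Over those 36, the MRPL median log2 ratio was -0.040 and the MRPS median -0.0058. The annotation also names 75 pseudogenes of 34 members, and 0 of them have a row in the table. Reads shared between a member and such copies may be divided by RSEM, and of the 66 members under 100 CPM, 43 had an estimated count within 0.05 of a whole number in both libraries and 18 had a fractional estimate in both.

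RefSeq promoter windows (GRCh38.p14, 250 bases before to 50 after the start, 300 in all) were given for 68 members, in 84 windows. They were searched on both strands for CCGGAAG, the core bound by ETS factors such as GABPA, for GCNTGCG, from the NRF1 site, for AAGATGG, from the YY1 site, and for CACGTG, the E-box bound by basic helix-loop-helix factors, among them the circadian factors CLOCK and BMAL1 and the growth regulator MYC. CCGGAAG was in 38.1% of the members' windows, 10.3% of all 35116 windows and 18.2% of windows of genes averaging at least 10 CPM. AAGATGG was in 32.1%, 5.84% and 7.87% of these sets. GCNTGCG was in 39.3%, 19.9% and 31.8%, and CACGTG in 10.7%, 7.26% and 9.90%. Shares for CCGGAAG and AAGATGG were thus more than 1.5 times those of comparably expressed genes, whereas those for GCNTGCG and CACGTG were closer to them. In the members' windows, 5 pairs of matches overlapped each other. A match is a description of the letters, not of binding.

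The 6 windows that follow were chosen to show these matches beside the levels. MRPS34 is the member with the highest level per kilobase of the longest transcript and holds 3 matches to CCGGAAG, read as CTTCCGG on this strand. MRPL36 holds 2 matches to GCNTGCG, an E-box and a match to AAGATGG on the reverse strand. Its RefSeq window surrounds a start inside the annotated gene (chr5:1798386-1801366), not the start that faces NDUFS6. MRPL30, one of the members with an interval above 0, holds CCGGAAG with GCNTGCG, and MRPS10 holds it with AAGATGG. MRPL54 was among the members with the lowest ratios and holds CCGGAAG alone, and MRPS35, with the most reads, holds GCNTGCG alone. Each window is written 5′ to 3′ along the gene, with motif matches in capitals.
MRPS34 (chr16:1773085-1773384, minus strand): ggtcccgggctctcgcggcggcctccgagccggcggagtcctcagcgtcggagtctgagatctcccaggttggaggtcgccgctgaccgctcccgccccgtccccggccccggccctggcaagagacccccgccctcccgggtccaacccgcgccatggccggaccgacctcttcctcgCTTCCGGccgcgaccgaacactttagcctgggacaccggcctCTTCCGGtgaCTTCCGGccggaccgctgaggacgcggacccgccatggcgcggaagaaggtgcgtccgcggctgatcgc
MRPL36 (chr5:1799788-1800087, minus strand): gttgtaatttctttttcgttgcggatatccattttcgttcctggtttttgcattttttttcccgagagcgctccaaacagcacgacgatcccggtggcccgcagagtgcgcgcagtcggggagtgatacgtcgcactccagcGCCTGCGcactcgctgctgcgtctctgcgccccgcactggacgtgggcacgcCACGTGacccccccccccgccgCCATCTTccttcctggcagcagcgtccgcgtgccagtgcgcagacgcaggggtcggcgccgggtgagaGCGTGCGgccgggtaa
MRPL30 (chr2:99180934-99181233, plus strand): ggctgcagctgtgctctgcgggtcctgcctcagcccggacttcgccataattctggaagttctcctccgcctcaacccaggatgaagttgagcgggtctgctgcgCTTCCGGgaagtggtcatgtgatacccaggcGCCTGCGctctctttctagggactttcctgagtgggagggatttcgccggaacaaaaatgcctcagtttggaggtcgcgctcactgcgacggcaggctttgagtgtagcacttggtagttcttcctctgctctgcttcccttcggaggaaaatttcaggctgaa
MRPS10 (chr6:42217812-42218111, minus strand): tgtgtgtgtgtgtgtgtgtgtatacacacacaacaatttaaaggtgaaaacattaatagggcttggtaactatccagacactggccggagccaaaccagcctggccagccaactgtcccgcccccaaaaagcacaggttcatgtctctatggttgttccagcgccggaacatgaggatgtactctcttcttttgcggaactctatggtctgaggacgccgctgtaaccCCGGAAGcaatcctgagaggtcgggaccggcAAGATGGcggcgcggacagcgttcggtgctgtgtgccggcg
MRPL54 (chr19:3762432-3762731, plus strand): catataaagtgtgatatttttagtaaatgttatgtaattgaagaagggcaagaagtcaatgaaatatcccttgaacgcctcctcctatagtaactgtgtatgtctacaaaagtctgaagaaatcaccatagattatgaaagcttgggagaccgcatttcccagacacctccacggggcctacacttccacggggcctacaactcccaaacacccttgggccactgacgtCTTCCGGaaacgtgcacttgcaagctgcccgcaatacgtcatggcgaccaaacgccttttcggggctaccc
MRPS35 (chr12:27710582-27710881, plus strand): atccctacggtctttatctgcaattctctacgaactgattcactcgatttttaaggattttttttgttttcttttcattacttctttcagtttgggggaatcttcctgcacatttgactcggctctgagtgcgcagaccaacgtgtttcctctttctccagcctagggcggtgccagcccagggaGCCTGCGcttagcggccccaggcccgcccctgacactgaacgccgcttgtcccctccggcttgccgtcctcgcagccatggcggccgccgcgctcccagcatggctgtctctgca

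The 29 members with CCGGAAG in a window had a median log2 ratio of -0.044 (range -0.29 to 0.22), and the 39 without it had -0.0009 (-0.36 to 0.21). The 24 members with AAGATGG had a median of -0.0052 (-0.22 to 0.17), and the 44 without it had -0.035 (-0.36 to 0.22). The 31 members with GCNTGCG had a median of -0.020 (-0.36 to 0.22), and the 37 without it had -0.0069 (-0.29 to 0.21). The 9 members with CACGTG had a median of -0.011 and the narrower range of -0.063 to 0.16, and the 59 without it had a median of -0.015 (-0.36 to 0.22). Levels per kilobase were alike with and without CCGGAAG, at medians of 33.2 and 33.9 CPM per kb, and stood at 42.3 CPM per kb with AAGATGG and 27.5 without it, or 52.1 and 47.5 with the median transcript length. No test was run on these differences.

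Of the other genes of the pathway, 37 of 38 listed mitochondrial translation and ribosome assembly factors had a row. Their median log2 ratio was 0.014 (SD 0.16), with 20 higher and 17 lower in high glucose. Intervals lay below 0 for 6 (16.2%) and above 0 for 9 (24.3%), beside the background shares of 16.0% and 15.8% among genes averaging at least 1 CPM and of 18.0% and 20.4% among genes averaging at least 10 CPM, as 33 of the 37 did. The most abundant was TUFM, the mitochondrial elongation factor Tu, at 389 and 387 CPM. The lowest ratios were those of DDX28, an RNA helicase of large-subunit assembly (22.5 and 17.6 CPM, log2 ratio -0.36), and PDF, the peptide deformylase (11.8 and 9.20 CPM, -0.36), with MTG1, an assembly GTPase (20.7 and 17.1 CPM, -0.27), next. The highest were those of MTRF1L, a release factor (31.0 and 38.1 CPM, log2 ratio 0.30), NSUN4, an rRNA methyltransferase (35.8 and 42.2 CPM, 0.24), and FASTKD2, an RNA-binding assembly protein (41.8 and 48.4 CPM, 0.21). The 15 translation factors had a median of -0.026 and the 22 assembly factors one of 0.020, so that factors, like the ribosomal proteins, had genes on both sides of 0.

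The related gene groups lay lower. All 79 cytosolic ribosomal protein genes were lower in high glucose, with a median log2 ratio of -0.20 (SD 0.069) and summed levels of 66204 and 58361 CPM. Of 76 nuclear genes for respiratory chain subunits, 64 were lower and 12 higher, with a median of -0.13 and summed levels of 21018 and 19258 CPM. Among the 9345 genes averaging at least 10 CPM, 4499 were lower and 4846 higher. The sums of these groups had log2 ratios of -0.18 (95% counting interval -0.19 to -0.18) and -0.13 (-0.13 to -0.12), and these intervals did not overlap that of the mitochondrial ribosomal protein sum. With 1 library per concentration, the difference between the groups compares these libraries and was not tested across cultures.

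**Figure D5:**
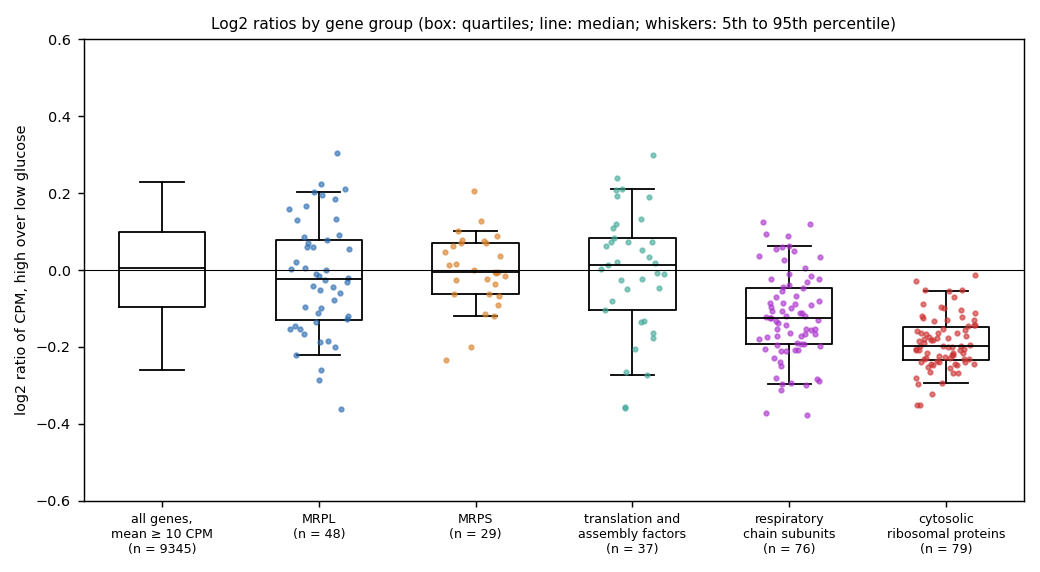
Log2 ratio of CPM, high over low glucose, by gene group, with boxes for quartiles, a line for the median, whiskers for the 5th to 95th percentile and a point per gene (points not drawn for all genes). MRPL, MRPS and the factors have medians of -0.023, -0.0048 and 0.014, and respiratory chain and cytosolic ribosomal protein genes -0.13 and -0.20.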

How the data were processed

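Polyadenylated RNA of hNCI-H716 cells was prepared with a kit that does not mark strand. Per the submitters' processing notes and the study's methods, reads were trimmed with Trim Galore 0.5.0, aligned to GRCh38 with STAR 2.6.0 and counted per gene with RSEM 1.3.1. Genes with very low totals were removed, and TMM in edgeR is named as the normalization, but the deposited CPM show no TMM factor. The authors deposited CPM and log2 CPM values per library, with their means, log2 differences and ratio (fold) of high over low glucose. The mean, difference and ratio columns were not used.

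The deposited CPM carry a prior of 0.25 counts, and the library totals were recovered from their steps. RSEM counts need not be whole, so no count model was run. CPM was divided by TMM factors computed over all genes (0.9985 for low and 1.002 for high glucose) with numpy 2.4.6, scipy 1.17.1 and pandas 2.3.3 under Python 3.11.15, and checked on simulated libraries. Log2 ratios carry exact binomial 95% intervals and CPM Wilson intervals. PCR reads without molecular identifiers are not independent molecules, so both cover counting error only. Lengths, GC content and coordinates came from GENCODE 29 (GRCh38), where all 77 members were found.

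Values are named for the 5 highest and 5 lowest members by CPM, the 5 largest and 5 smallest log2 ratios, the structural groups, components with other symbols and the 3 largest and 3 smallest ratios among factors. Levels per kb of single genes and by origin, head-to-head neighbors, promoters and motifs were chosen after their values were seen. The members and lists were chosen with earlier results of these data known. Alternatives were library totals, median-of-ratios factors, a pseudocount of 1 CPM, the prior taken off, other filters, other transcript lengths, subunits by structure and, added after seeing the data, removal of the GC trend, the principal transcript's length, other lengths by origin and members with no overlapping gene.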

Additional observations from a re-analysis of the deposited data

How the results depend on the processing

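Of 96 alternative values for 16 summary results, 88 stayed within a narrow margin and 8 did not. No member, cytosolic ribosomal protein gene or respiratory chain gene averaged under 10 CPM, so their values could not move under the other filters. The margin was the half-width of the summed list's counting interval for median log2 ratios, the SD between the libraries for levels and 1.5 times for counts. The cytosolic ribosomal protein median log2 ratio (-0.1983) was -0.1939 with library totals, -0.1941 with median-of-ratios factors and -0.2069 with the GC trend taken off. The level per kb was 54.2 CPM for MRPL (34.5 as reported) and 43.0 CPM for MRPS (28.4 as reported) with the median transcript length, 39.7 CPM for MRPL with the principal transcript, and 27.6 CPM for MRPS with subunits assigned by structure. The MRPL median log2 ratio (-0.023) was -0.040 over members with no overlapping gene. The shifts in level and in the MRPL median follow from the other length, subunit or gene set, and those under library totals and median-of-ratios factors are the shift of all genes, at most 0.0044 on the log2 scale. The cause of the shift with the GC trend taken off was not tested. Of 385 alternative values for single members, 384 moved by less than their counting interval, and MRPS34 reached a log2 ratio of 0.077 with the GC trend taken off. Counts of members at least 0.32 from 0 (log2) or with an interval away from 0 did not move under the scalings tried. The filters could not move them, because every member averaged at least 12.04 CPM. No paired analysis was possible because low and high glucose have 1 library each. For the same reason, differences between cultures cannot be told apart from glucose. The depth limits the least abundant members most, as for MRPS31, whose interval ran from -0.19 to 0.33.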
